A study of Mus musculus with 6 samples.

Results

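Retrocopies are intronless copies of genes, made when a messenger RNA is reverse transcribed and inserted elsewhere in the genome. The machinery of LINE elements does this, so a young copy carries the joined exons of its parent and often a run of A left by the poly(A) tail. Most are annotated as processed pseudogenes, and some keep an open reading frame. A short read from such a copy can be assigned only where the copy and its parent differ in sequence, so the counts of both are best read together.

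Described here are 5 pairs of a retrocopy and its parent outside the ribosomal protein families, 10 genes of the 55487 in the count tables. The copies are Atp6v0c-ps2, Gm7335, Gm9825, Gm12751 and Hmga1b, and their parents are Atp6v0c, Scoc, Rnps1, Polr1d and Hmga1. They were found by symbol, and they had been picked because the counts of copy and parent differed between the 2 groups of mice in these same libraries. Levels and fold changes of the members between the groups are therefore a description, given with errors and without a test.

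The RNA came from the cerebellum of 6 male mice aged 14 days, 1 mouse to a library. The 3 knockout (KO) mice were homozygous for the allele Galnt17tm1.1(KOMP)Vlcg of Galnt17, formerly Wbscr17, which encodes an enzyme of the family that starts mucin-type O-glycosylation, and the 3 wild types (WT) are labelled B6C3, which stands for crosses of C57BL/6J with C3H/He. The allele came into C57BL/6J by in vitro fertilization and was then bred to B6C3 animals, because homozygous pups were not born live on C57BL/6. The labels do not say whether KO and WT mice were littermates or how much of either parental genome each mouse carried, and all libraries were aligned to mm10, the C57BL/6J reference. How far alleles of the 2 strains differed between the groups was not tested.

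Reads counted in genes totalled 17111611 to 29840046 per library. Galnt17 was at 2.99 ± 0.526 counts per 1000000 (CPM) in KO against 45.3 ± 2.21 in WT (SD, n = 3), which matches the labels. The 12 cerebellar markers were all measured, at a summed 7591 to 7658 CPM in KO and 6295 to 7038 in WT. Multimapping reads, which the tables leave out of genes, were 3.72% to 3.90% of all reads in KO and 4.09% to 4.29% in WT, and unmapped reads 13.8% to 17.2% against 6.52% to 10.03%. Of 20 markers of the choroid plexus, the epithelium that makes cerebrospinal fluid, 13 were called lower in KO, with a summed 435 to 1031 CPM in KO and 1889 to 3206 in WT and no marker at 0 in all libraries. These measures differ between the groups, and their part in the results below was not tested. In bulk tissue, fewer cells of a type and less RNA per cell cannot be told apart.

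The annotated copies were nearly identical to the transcripts of their parents. Gm12751 matched Polr1d at each of 381 bases, Hmga1b matched Hmga1 at 1599 of 1602, Atp6v0c-ps2 matched Atp6v0c at 464 of 465, Gm9825 matched Rnps1 at 838 of 843 and Gm7335 matched Scoc at 367 of 373. No alignment held a gap. Each copy is a single exon that runs through 2 to 5 exon junctions of its parent, 3 for Gm7335, 5 for Gm9825, 4 for Hmga1b and 2 each for Atp6v0c-ps2 and Gm12751. In the reading frame of the parent none of the 5 copies had a stop codon, over 155 codons of Atp6v0c-ps2, 81 of Gm7335, 281 of Gm9825, 126 of Gm12751 and 107 of Hmga1b. Of these, 2 annotated copies do not hold the whole coding part. Gm9825 starts at base 91 of the Rnps1 transcript, whose coding part starts at 88. Gm7335 ends at base 378 of the Scoc transcript, whose coding part ends at 380. Sequences were read from the GENCODE release M21 transcripts (GRCm38), and positions count from 1 at the 5′ end of the annotated copy.

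**Figure D1:**
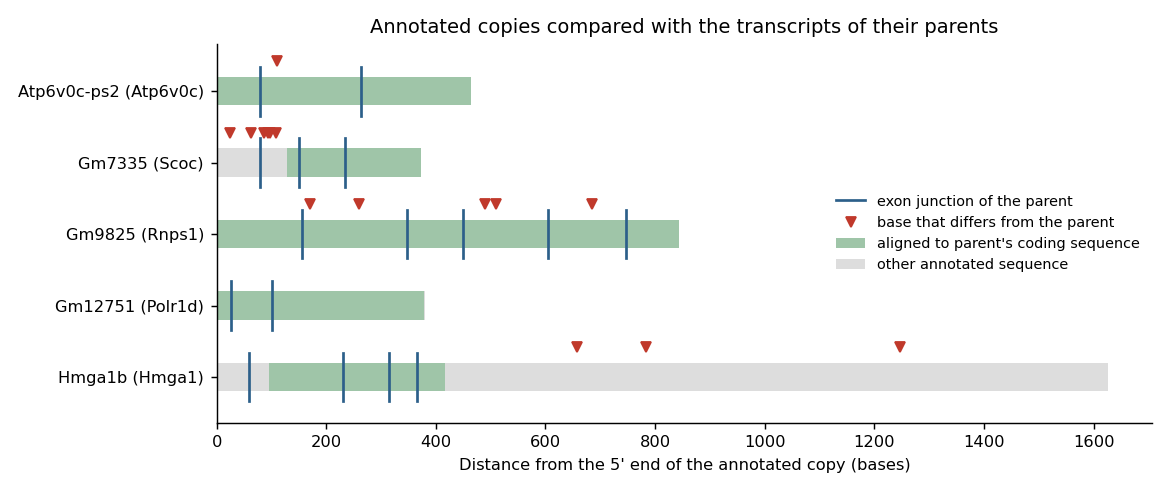
The 5 annotated copies drawn to scale, with distance from the 5′ end in bases on the x axis. Green marks what aligned to the coding sequence of the parent, blue lines the exon junctions of the parent and red triangles the bases that differ. Gm12751 has no triangle, and the 3 of Hmga1b lie outside the coding part.

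The 381 bases of Gm12751 start at the start codon of Polr1d. Its first 150 bases show what makes it a retrocopy: the capitals mark the 2 bases on either side of each place where Polr1d has an intron, and the copy at chr4:34354043-34354192 (plus strand) has none.
Gm12751: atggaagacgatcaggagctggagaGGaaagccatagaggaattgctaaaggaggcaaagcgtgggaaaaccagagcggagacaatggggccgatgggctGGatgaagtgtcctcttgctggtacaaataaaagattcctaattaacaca

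Hmga1b carried the same mark. Its coding stretch at chr11:120763004-120763123 (plus strand) is shown because it joins exons that Hmga1 splices, again with the bases beside 2 junctions in capitals, and it is identical to Hmga1. The last 30 bases of the annotated transcript, chr11:120764390-120764419, end in a run of 24 A, in capitals, past the part that aligned to Hmga1.
Hmga1b, coding: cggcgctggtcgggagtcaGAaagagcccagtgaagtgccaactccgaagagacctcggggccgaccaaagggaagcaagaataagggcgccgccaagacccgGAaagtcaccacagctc
Hmga1b, end: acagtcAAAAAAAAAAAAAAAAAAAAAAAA

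The coding sequence of Hmga1b, 321 bases, did not differ from that of Hmga1. The 3 differences, A657G, A784G and G1246T (base in Hmga1, position, base in Hmga1b), lie in the stretch that aligned to the 3′ untranslated region. The first is shown in capitals within 30 bases, for Hmga1b at chr11:120763436-120763465 and for Hmga1 at chr17:27562715-27562744, both on the plus strand.
Hmga1b: ttagccgcagcccgGcctgctgcgcacctc
Hmga1: ttagccgcagcccgAcctgctgcgcacctc

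Atp6v0c-ps2 had 1 difference, T111C, at codon position 3. It is the only base by which a read inside the annotated copy can be told from Atp6v0c, and it is the capital in the lines for the copy, chr6:37806166-37806225 on the plus strand, and for Atp6v0c, chr17:24164822-24164881 on the minus strand.
Atp6v0c-ps2: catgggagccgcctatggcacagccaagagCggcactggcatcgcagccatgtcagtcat
Atp6v0c: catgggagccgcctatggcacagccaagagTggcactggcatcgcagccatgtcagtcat

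Gm9825 had 5 differences, C171A, C260T, T489C, T510C and C684T, all in the coding part and 4 of them at codon position 3. The lines show T489C and T510C, for Gm9825 at chr6:7982855-7982914 on the minus strand and for Rnps1 at chr17:24422169-24422228 on the plus strand.
Gm9825: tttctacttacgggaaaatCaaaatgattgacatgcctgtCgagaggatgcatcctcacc
Rnps1: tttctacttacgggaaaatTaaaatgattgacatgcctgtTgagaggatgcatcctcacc

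The 6 differences of Gm7335 all lay in the part that aligned to the 5′ untranslated region of Scoc, G25T, G63T, T87A, A94C, G98T and G108A, and its 244 coding bases had none. The 30 bases with the densest differences hold 4 of them, for Gm7335 at chr17:37713812-37713841 and for Scoc at chr8:83438023-83438052, both on the minus strand.
Gm7335: ttcAttaaagCgttTgcgttcgagAgctga
Scoc: ttcTttaaagAgttGgcgttcgagGgctga

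Windows as long as 1 read, 150 bases, show how much of each copy could be told from its parent at this read length. All 232 such windows of Gm12751 were also found, base for base, in a transcript of Polr1d. The share was 69.5% of 1477 windows in Hmga1b, 64.9% of 316 in Atp6v0c-ps2, 51.8% of 224 in Gm7335 and 19.3% of 694 in Gm9825. The pairs thus run from a copy with no distinguishing base in its annotation to one in which most windows hold a difference. RefSeq (GRCm38.p6) draws longer copies at 4 of the 5 places, 890 bases for Gm12751, 1133 for Atp6v0c-ps2, 1625 for Gm9825, which it names Rnps1-ps, and 1707 for Gm7335. The RefSeq copy of Gm7335, chr17:37712141-37713847, leaves out the 5′ end of the GENCODE copy, chr17:37713552-37713924 on the minus strand. Sequence beyond the GENCODE transcripts was not analysed here. The windows take 1 read alone, whereas the reads were paired, and multimapping reads are left out of the counts. How far the counts tell a copy from its parent was not tested. By these windows the annotated sequence differs least from the parent for Gm12751 and most for Gm9825.

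All 5 copies were lower in KO and all 5 parents higher, and in none of the 10 genes did the 3 KO values overlap the 3 WT values. Among the 18237 genes tested, 12.2% had all KO values lower and 11.5% all higher. In edgeR's quasi-likelihood test over the full table, 5 copies were called lower and 3 parents higher (adjusted p below 0.05), where 0.872% and 0.784% of all genes were called in those directions. Among the 1214 tested processed pseudogenes, which include 4 of the copies, the shares called were 1.48% lower and 2.39% higher. The members were chosen on this contrast, so nothing is read from these counts. All 10 passed the filter on low counts, which 3 libraries above it are enough to pass.

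**Figure D2:**
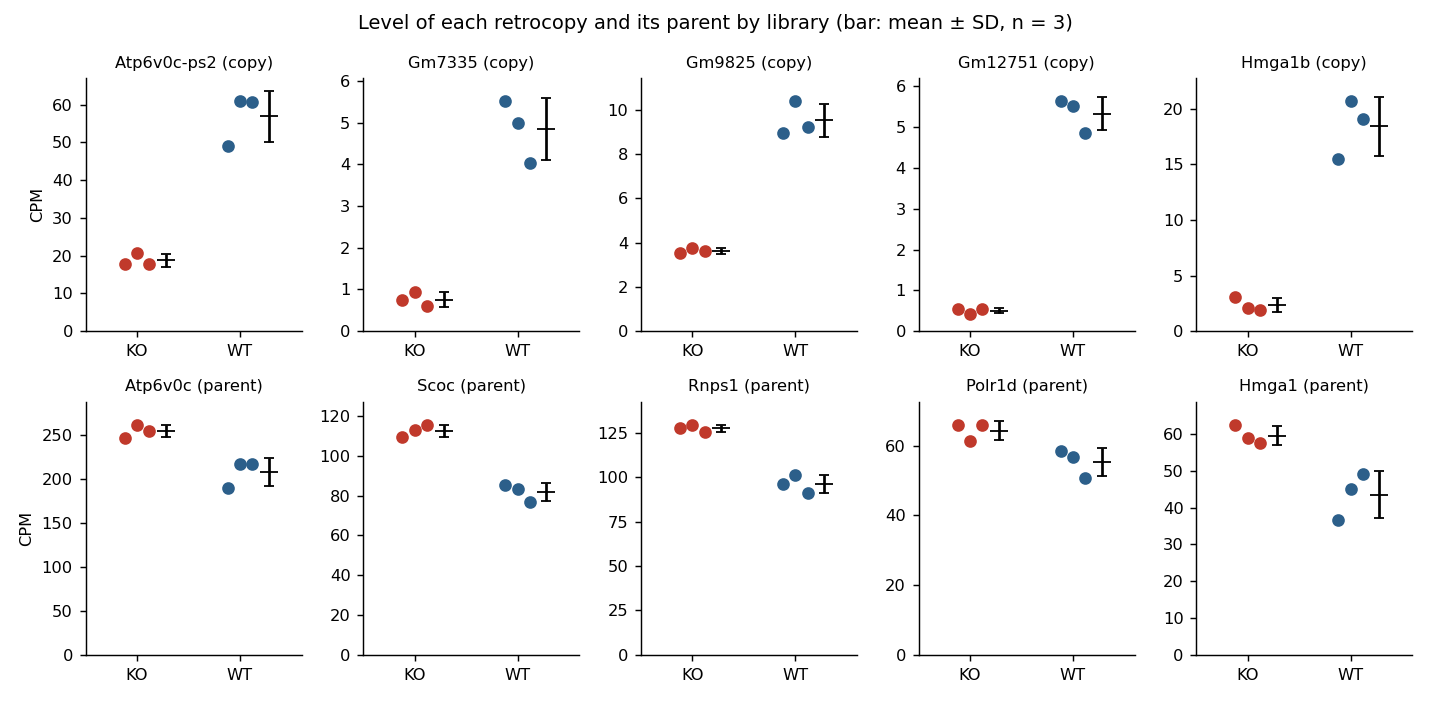
Level in CPM (y axis, from 0, scaled separately for each gene) of the 5 copies in the upper row and their parents in the lower row, with 1 point per library and a bar for the mean ± SD of 3 libraries. Each copy has its 3 KO points below its 3 WT points, and each parent has them above.

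Atp6v0c encodes the c subunit of the V-ATPase, the proteolipid that forms the proton-carrying ring of the pump that acidifies lysosomes and synaptic vesicles. Its copy Atp6v0c-ps2 (ENSMUSG00000080242, chr6:37806086-37806550) stood at 17.8, 20.8 and 17.8 CPM in the KO mice, given here and below in the order of replicates 1 to 3, and at 49.1, 60.8 and 60.6 CPM in the WT mice. Its KO libraries lay within 3 CPM of one another, and the lowest WT library stood 28.3 CPM above the highest of them. The copy was lower in KO by 3.02-fold (log2 fold change -1.59, SE 0.10). Atp6v0c itself (ENSMUSG00000024121, chr17:24163866-24169702) was at 247, 261 and 255 CPM in KO and 190, 217 and 217 CPM in WT. The parent was 1.22-fold higher in KO (log2 fold change 0.29, SE 0.06), with replicate 1 the lowest WT library for both genes.

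Scoc encodes a short coiled-coil protein of the Golgi that takes part in autophagy. Its copy Gm7335 (ENSMUSG00000067189, chr17:37713552-37713924) was counted 22, 22 and 12 times in KO against 133, 85 and 83 times in WT. These came to 0.737, 0.946 and 0.596 CPM in KO and 5.51, 4.99 and 4.03 CPM in WT. The KO libraries were all below 1 CPM and the WT libraries all above 4, a 6.31-fold difference (log2 fold change -2.66, SE 0.23). Scoc (ENSMUSG00000063253, chr8:83430084-83458391) was at 109, 113 and 115 CPM in KO and 85.4, 83.1 and 76.6 CPM in WT. It was 1.38-fold higher in KO (log2 fold change 0.46, SE 0.06), and the lowest KO library exceeded the highest WT library by 24.1 CPM.

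Rnps1 encodes an RNA-binding protein that joins the exon junction complex and links splicing to export and nonsense-mediated decay. Its copy Gm9825 (ENSMUSG00000096403, chr6:7982541-7983383) was at 3.52, 3.78 and 3.62 CPM in KO and 8.95, 10.4 and 9.24 CPM in WT. It had the smallest difference of the 5 copies, 2.61-fold (log2 fold change -1.38, SE 0.13), and also the smallest share of windows identical to its parent. A link between them was not tested. Rnps1 (ENSMUSG00000034681, chr17:24414565-24425901) was at 128, 129 and 125 CPM in KO and 96.3, 101 and 91.0 CPM in WT. The parent was 1.33-fold higher in KO (log2 fold change 0.41, SE 0.05).

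Polr1d encodes a small subunit shared by RNA polymerases I and III, which transcribe ribosomal and transfer RNA. Its copy Gm12751 (ENSMUSG00000062554, chr4:34354043-34354423) was counted 16, 10 and 11 times in KO against 136, 94 and 100 times in WT, or 0.536, 0.430 and 0.546 CPM against 5.63, 5.51 and 4.86 CPM. This copy had the largest fold of the 5, 10.5-fold (log2 fold change -3.39, SE 0.21), and its annotated sequence is the one with no base that differs from the parent. Among the copies between these extremes, identical windows and fold were 51.8% and 6.31-fold for Gm7335, 64.9% and 3.02-fold for Atp6v0c-ps2, and 69.5% and 7.66-fold for Hmga1b. Whether fold and identity are linked was not tested. Polr1d (ENSMUSG00000029642, chr5:147077050-147111597) was at 65.9, 61.2 and 65.9 CPM in KO and 58.4, 56.8 and 50.7 CPM in WT. Its groups came closest to one another among the parents, 2.81 CPM apart, and it was 1.16-fold higher in KO (log2 fold change 0.22, SE 0.07). Polr1d is the only member on the chromosome of the deleted gene, 15.8 Mb from Galnt17.

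Hmga1 encodes an architectural chromatin protein that binds AT-rich DNA and is abundant in dividing and immature cells. Hmga1b (ENSMUSG00000078249, chr11:120762794-120764419), the member of the 5 copies that is annotated as protein-coding, was at 3.05, 2.06 and 1.94 CPM in KO and 15.4, 20.7 and 19.1 CPM in WT. It was lower in KO by 7.66-fold (log2 fold change -2.94, SE 0.18). Hmga1 (ENSMUSG00000046711, chr17:27556497-27563674) was at 62.4, 58.8 and 57.4 CPM in KO and 36.5, 44.9 and 49.0 CPM in WT. It was 1.37-fold higher in KO (log2 fold change 0.46, SE 0.09), with a spread in WT of 6.38 CPM (SD) against 2.56 in KO. Hmga1 overlaps AI413582 on the opposite strand, and the counts do not separate strands. In the first and second strand column its log2 fold change was 0.51 and 0.44.

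The sums of copy and parent are a description too, since the members were chosen on this contrast. Their intervals are not read as a test, and differences between pairs were not tested. In the Hmga1, Atp6v0c and Polr1d pairs the sums of KO and WT overlapped, and the 95% interval of their fold change included 1. In the Scoc and Rnps1 pairs the sums were higher in all 3 KO libraries.

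The Hmga1 pair summed to 65.4, 60.9 and 59.3 CPM in KO and 52.0, 65.6 and 68.1 CPM in WT. The means, 61.9 ± 3.16 and 61.9 ± 8.69 (SD, n = 3), were nearly equal, with a fold change of 1.004 (95% interval 0.868 to 1.16). The difference KO minus WT was -16.1 CPM for Hmga1b (SE 1.58) and 16.02 CPM for Hmga1 (SE 3.97).

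The Atp6v0c pair summed to 265, 282 and 273 CPM in KO and 239, 278 and 278 CPM in WT, a fold change of 1.03 (95% interval 0.929 to 1.15). The difference KO minus WT was -38.04 CPM for the copy (SE 3.995) and 46.6 CPM for the parent (SE 10.1). The Polr1d pair summed to 66.5, 61.7 and 66.4 CPM in KO and 64.1, 62.4 and 55.6 CPM in WT, a fold change of 1.07 (95% interval 0.969 to 1.18). Here the differences were -4.83 CPM for the copy (SE 0.243) and 9.01 CPM for the parent (SE 2.81). In both pairs the difference of the sums, 8.55 CPM (SE 14.0) and 4.18 CPM (SE 3.03), was within 2 SE of 0.

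The Scoc pair summed to 110, 114 and 116 CPM in KO and 90.9, 88.1 and 80.6 CPM in WT, a fold change of 1.31 (95% interval 1.20 to 1.43). The difference was -4.08 CPM for Gm7335 (SE 0.443) and 30.9 CPM for Scoc (SE 3.15), 7.56 times the size of the copy's. The Rnps1 pair summed to 131, 133 and 129 CPM in KO and 105, 112 and 100 CPM in WT, a fold change of 1.24 (95% interval 1.14 to 1.35). The difference was -5.88 CPM for Gm9825 (SE 0.446) and 31.2 CPM for Rnps1 (SE 3.18), 5.31 times the size. The corresponding ratio was 1.86 in the Polr1d pair, 1.22 in the Atp6v0c pair and 0.998 in the Hmga1 pair.

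**Figure D3:**
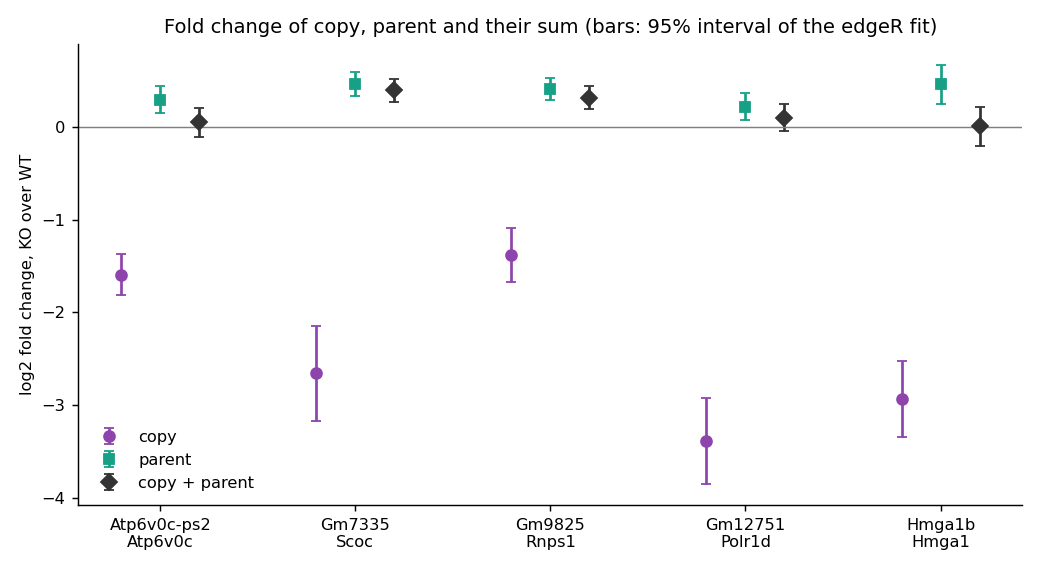
Log2 fold change of KO over WT (y axis) for the copy, the parent and the sum of both in each pair, with the 95% interval of the edgeR fit over 3 libraries per group. The sums of the Atp6v0c, Polr1d and Hmga1 pairs have intervals that cross 0, and those of the Scoc and Rnps1 pairs lie above 0.

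The share of a pair's counts that lay at the copy takes library size and the level of the pair out of the comparison. Hmga1b held 29.7%, 31.5% and 28.03% of its pair in the WT mice but 4.66%, 3.39% and 3.26% in the KO mice. Atp6v0c-ps2 held 20.6%, 21.9% and 21.8% in WT and 6.73%, 7.37% and 6.53% in KO. These were the largest shares, and the exact binomial 95% interval of every WT library lay above that of every KO library.

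Gm12751 held 8.79%, 8.84% and 8.74% in WT and 0.807%, 0.697% and 0.822% in KO. Across the 3 WT mice its share varied by 0.0508 percentage points (SD), while the exact 95% interval of WT replicate 2 alone, from counting error, ran from 7.20% to 10.7%. Gm9825 held 8.50%, 9.30% and 9.21% in WT and 2.68%, 2.84% and 2.81% in KO, and Gm7335 held 6.06%, 5.66% and 5.003% against 0.669%, 0.830% and 0.514%. In each of the 5 pairs the mice of a group lay close to one another and no KO share reached a WT share. No copy was at 0 in any KO library, and the lowest was Gm12751 with 10 counts in KO replicate 2.

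**Figure D4:**
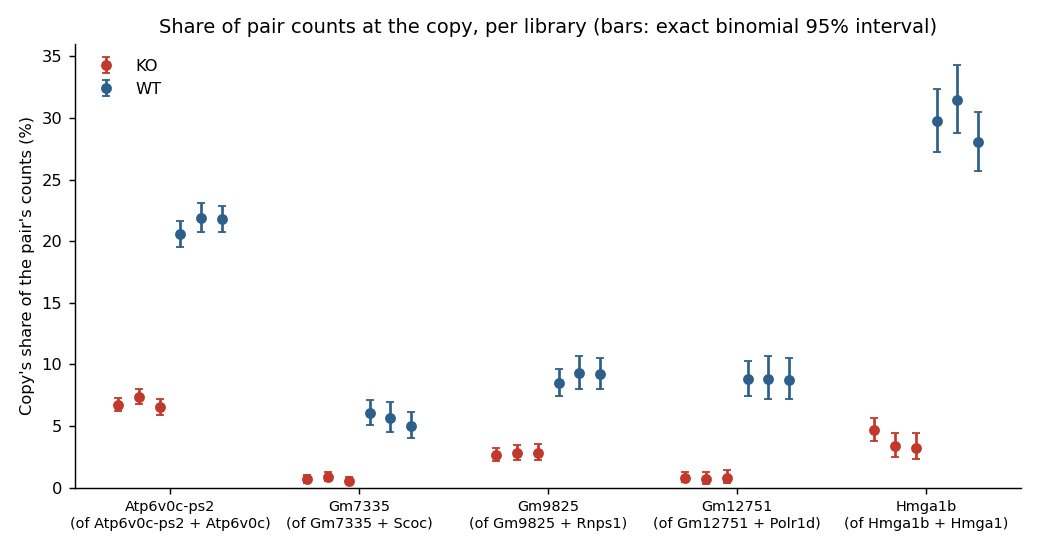
Share of the counts of copy plus parent that lay at the copy (y axis, percent, from 0), 1 point per library, with exact binomial 95% intervals that cover counting error only. For all 5 pairs the 3 WT points and their intervals lie above the 3 KO points and theirs.

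Other copies of the same parents were looked for by sequence among all annotated transcripts (at least 80% identity over at least 200 bases). The search returned the 5 members and 4 other genes. Atp6v0c-ps1 (chr7:4412438-4412900), 97.2% identical to Atp6v0c, was counted 49, 38 and 41 times in KO against 18, 25 and 31 times in WT, or 1.77 ± 0.230 against 1.24 ± 0.428 CPM (SD, n = 3). Its values were higher in all 3 KO libraries but it did not pass edgeR's test (log2 fold change 0.53, SE 0.29, adjusted p = 0.370), and it did not pass in DESeq2 or limma-voom. The other 3, Gm8686 with 89.2% identity to Polr1d, Gm43602 with 94.2% to Scoc and BC107364 with 81.8% to a non-coding transcript of Scoc, had 0, 1 and 1 counts in the 6 libraries together.

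The places where the members lie gave no call. The nearest tested gene on each side of each member, with the 1 that overlaps, made 21 genes, of which 0 passed in edgeR, DESeq2 or limma-voom and 6 had an unadjusted p under 0.05 in edgeR. Such values were common over all genes: in edgeR an unadjusted p of 0.0487, that of the gene Gcc2, went with an adjusted p of 0.282. No excess is read from the 6. Beside Hmga1b, Cbr2 and Rfng were at 2.45 against 2.12 CPM and 104 against 101 CPM in KO and WT (adjusted p = 0.717 and 0.770). Beside Gm9825, C1galt1, which encodes the core 1 synthase of O-glycans, was at 20.1 against 18.2 CPM, and Col28a1 at 1.84 against 1.88 CPM (adjusted p = 0.360 and 0.937). Trim24, after Atp6v0c-ps2, was at 45.2 against 51.4 CPM (adjusted p = 0.150), and Ybx1-ps2 before it at 3.42 against 2.05 CPM (adjusted p = 0.140). Gm12751 lay between Spaca1, at 0.418 against 0.600 CPM, and Gm12350, at 5.66 against 3.54 CPM (adjusted p = 0.589 and 0.0864). The tested genes nearest to Gm7335 were H2-M3, 439 kb away, at 1.39 against 1.04 CPM, and the ribosomal RNA gene CT010467.1, 2132 kb away, at 484 against 1595 CPM (adjusted p = 0.596 and 0.167), where WT replicate 3 alone had 3532 CPM.

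Of the 10 members 4 lie on chromosome 17, namely Gm7335 and the parents Atp6v0c, Rnps1 and Hmga1, with 245 kb between Atp6v0c and Rnps1. Beside the parents, both genes next to Scoc were higher in all 3 KO mice, with an unadjusted p under 0.05, but did not pass after adjustment. These were Clgn, which encodes a testis chaperone, at 20.2 against 16.1 CPM, and the pseudogene Gm5910 at 1.57 against 0.859 CPM (adjusted p = 0.106 and 0.173). Amdhd2 and Tbc1d24, next to Atp6v0c, and Eci1, next to Rnps1, were at 16.3 against 14.3, 95.4 against 101.8 and 31.6 against 29.98 CPM (adjusted p = 0.341, 0.372 and 0.655).

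No partner of the parents in the 5 lists passed the test. Counts at an unadjusted p under 0.05 are given for each list, but such values were common over all genes, so no excess is read. Of 19 tested V-ATPase subunits other than Atp6v0c 0 passed in edgeR, DESeq2 or limma-voom, 1 had a higher and 6 a lower level at an unadjusted p under 0.05, and the median log2 fold change was -0.09, where it was -0.01 over all genes tested. In 10 of the 19 all KO values lay below all WT values and in 0 above, against 12.2% and 11.5% of all genes tested. These counts were 2 and 0 of 20 SCOC and autophagy genes and 4 and 2 of 19 exon junction and decay genes. They were 1 and 3 of 23 polymerase subunits and 3 and 0 of 9 HMG genes. The 3 with the smallest p were Atp6v0d1 at 177 against 201 CPM, Atp6v1h at 129 against 145 CPM and Atp6v1e1 at 251 against 337 CPM (adjusted p = 0.115, 0.115 and 0.139). For Atp6v1e1, WT replicate 1 stood apart with 429.99 CPM against 295 and 285 in the other two. Without WT replicate 1, 4 subunits were called lower, but genes called lower over all genes then numbered 962, against 159 with all libraries.

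Among the other lists 0 genes passed as well, in edgeR, DESeq2 and limma-voom. Of 19 genes of the exon junction complex and nonsense-mediated decay, 2 had a lower level at an unadjusted p under 0.05, and the median was -0.04. The helicase gene of the complex, Eif4a3, was at 61.2 against 73.6 CPM, Upf3a at 49.7 against 55.8 and Upf1 at 96.1 against 89.2 CPM (adjusted p = 0.106, 0.155 and 0.359). Of 23 subunits of RNA polymerases I and III, an unadjusted p under 0.05 was found for 1 higher and 1 lower gene, and the median was -0.03. Polr1b, a large subunit of polymerase I, was at 27.3 against 22.8 CPM and Polr3e at 43.4 against 38.9 CPM (adjusted p = 0.212 and 0.285).

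Of 20 SCOC partners and autophagy genes 2 were lower at an unadjusted p under 0.05, with a median of -0.03. Wac was at 135 against 147 CPM, Gcc2 at 72.3 against 79.9 and Pik3c3 at 38.12 against 41.5 CPM (adjusted p = 0.260, 0.282 and 0.355). Of 9 tested HMG protein genes 3 were lower at an unadjusted p under 0.05, with a median of -0.07. Hmgb2, a gene of dividing cells, was at 44.2 against 56.9 CPM, Hmgn2 at 137 against 156 and Hmgb3 at 54.0 against 65.5 CPM (adjusted p = 0.217, 0.236 and 0.264). WT replicate 2 had the highest level of each of the 3, and without it their log2 fold changes were -0.17, -0.09 and -0.10 instead of -0.35, -0.18 and -0.27.

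**Figure D5:**
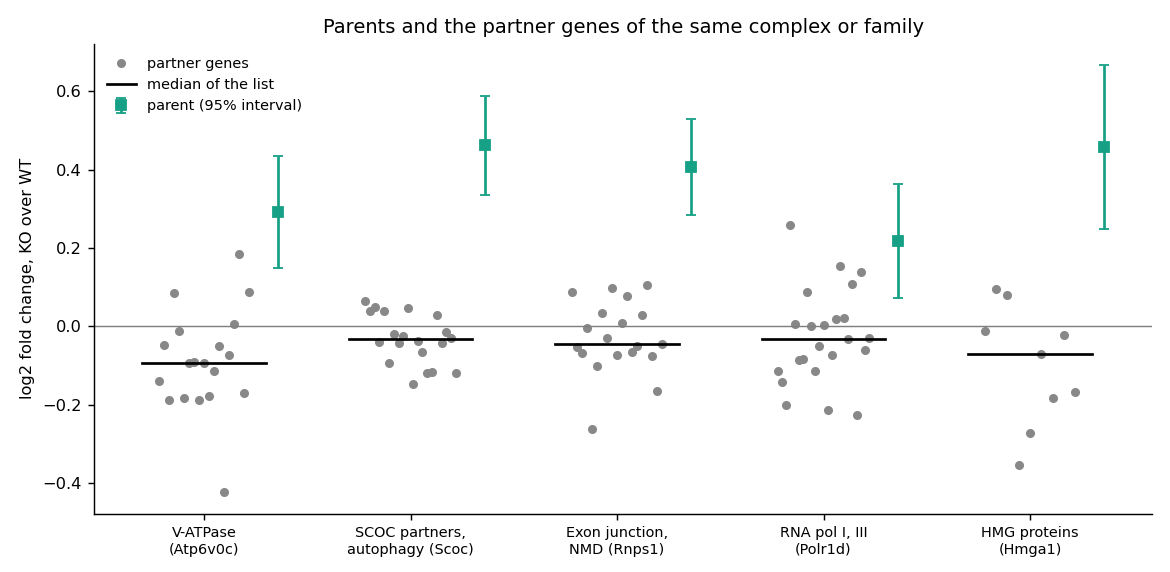
Log2 fold change of KO over WT (y axis) for the tested genes of 5 lists (grey points, 1 gene each, black line for the median) and for the parent that belongs with each list (green square, 95% interval). The 5 medians lie between -0.09 and -0.03 and the parents between 0.22 and 0.46.

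The genes whose pattern over the 6 libraries was most like that of each copy were found by the distance between log2 CPM values centred on their mean, over 15875 genes of at least 1 CPM. The copies were chosen for lower values in KO, and this distance follows the same contrast. Genes with a like fold therefore lie near by choice, and nothing is read from the nearness of copies. Gm9825 was the second nearest to Atp6v0c-ps2 (distance 0.35), and Gm12751 and Hmga1b were at rank 3 for one another (0.69). The nearest to Atp6v0c-ps2 was Cdh3, which encodes P-cadherin, at 0.884 against 2.48 CPM in KO and WT, and the nearest to Gm9825 was Aass, which encodes an enzyme of lysine breakdown, at 1.40 against 3.64 CPM. Rps3a3, a ribosomal protein pseudogene at 4.91 against 43.2 CPM, was nearest to Gm12751, and Gm10020, another processed pseudogene at 1.12 against 8.94 CPM, was nearest to Hmga1b. Gm8615 (0.490 against 3.44 CPM) and Tmem181c-ps (7.87 against 37.8 CPM), a transcribed processed and an unprocessed pseudogene, were the nearest to Gm7335. The remaining one for Atp6v0c-ps2 was Rpl15-ps2, at 2.25 against 6.31 CPM.

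Processed pseudogenes as a class, the annotation of 4 of the copies, were set beside them. Of the 1210 tested processed pseudogenes other than these 4, 29 were called higher and 14 lower in KO (2.4% and 1.16%). In 37.1% all 3 KO values were higher than all 3 WT values, and in 2.23% all were lower. Atp6v0c-ps2, Gm7335, Gm9825 and Gm12751 were chosen for lying wholly below WT, so their direction is no comparison with the class.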

How the data were processed

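The authors deposited 1 table of raw gene counts for each library, from total RNA prepared with Illumina TruSeq kits and sequenced as paired reads of 150 bases, per the labels. The authors counted with STAR 2.7.5a on mm10/GRCm38, per the submitters' processing notes, and the file headers give no counting options. The column without strand was used, since about equal counts fell in both strand columns. The lines that name no gene (unmapped, multimapping, unassigned or ambiguous reads) stayed out of library sizes and tests. Reads carry no stated molecular identifier and may include PCR duplicates, and binomial intervals cover counting error only.

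Symbols and positions came from GENCODE M21 (GRCm38), which matched 55227 of 55487 identifiers. Groups came from the strain label. Counts were fitted with edgeR 4.0.16 in R 4.3.3 (TMM, filterByExpr with minimum count 10 and minimum total 15, two-sided quasi-likelihood F test with Benjamini-Hochberg adjustment over 18237 genes, threshold 0.05), and again with each pair's 2 rows replaced by their sum. CPM are counts per 1000000 of TMM-scaled library size. SEs come from the fold change and its F statistic. Copies were aligned to parent transcripts with Biopython 1.88 and searched with blastn 2.17.0. The search had been planned on a genome and was run on annotated transcripts.

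The text names the 10 members, Galnt17, other copies with 10 counts or more in all and those few below, neighbours of the copies and some of the parents, the 3 genes with the smallest p of each of 5 partner lists (1 of these genes is not reported here), and up to 3 genes most like each copy. The members, lists and tests were chosen with earlier results of these data known. The fit was tested on simulated counts. Alternatives were DESeq2 1.42.0, limma-voom (limma 3.58.1), RLE factors, no filter, the strand columns and each library left out.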

Additional observations from a re-analysis of the deposited data

How the results depend on the processing

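Under every alternative run, the fold changes of the 10 members and 5 sums moved by less than the spread between mice. This spread combines the SDs of KO and WT on the log2 scale. Leaving out 1 library can hardly move a mean by that much, so those fits are no check by this measure. Sums near 0 changed sign: without WT replicate 1 the log2 fold change was -0.03 for the Atp6v0c pair and -0.11 for the Hmga1 pair, and the latter was -0.04 without KO replicate 1 and -0.02 in the second strand column. Leaving out 1 library at a time gave -1.69 to -1.54 for Atp6v0c-ps2, -2.83 to -2.53 for Gm7335, -1.43 to -1.32 for Gm9825, -3.45 to -3.29 for Gm12751 and -3.19 to -2.83 for Hmga1b. All 5 copies stayed called in each fit, while the number of parents called ran from 1 (without KO replicate 2) to 5 (no filter, or without WT replicate 1). Calls over all genes moved as well. Without KO replicate 2, 28 genes were called higher and 53 lower, and without WT replicate 1, 959 and 962. In the main fit these were 143 and 159, and nothing is read from the member counts. 

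Per kilobase of annotated exon, the copy's share in KO minus that in WT was -31.5 percentage points for Atp6v0c-ps2, -33.1 for Gm7335, -22.8 for Gm9825, -37.6 for Gm12751 and -30.7 for Hmga1b, since the annotated copies are shorter than their parents. Not scaled by length, the share difference of Gm12751 was -8.02 percentage points, and -7.59 and -8.43 in the first and second strand column. Without the filter, where all genes with a count are fitted, 3 neighbouring genes were called higher and 1 lower, and 1 V-ATPase subunit, 1 exon junction or decay gene and 2 HMG genes lower. Over all genes, 803 were then called higher and 820 lower. Leaving out 1 library gave 0 to 2 lower neighbours, 0 to 4 lower V-ATPase subunits, 0 to 1 lower exon junction genes and 0 to 1 lower polymerase subunits, each maximum without WT replicate 1. In that fit 962 genes of all were called lower. Processed pseudogenes called higher numbered 219 without the filter, 58 in DESeq2 and 1 to 72 with 1 library left out (1 without KO replicate 2, 3 without KO replicate 1, 7 without KO replicate 3, 17 without WT replicate 2, 44 without WT replicate 3 and 72 without WT replicate 1), and those called lower 35 without the filter and 11 to 23, with 11 without KO replicate 1 or 2. The cause of these shifts was not tested. No paired analysis was possible because the replicate numbers used here only name the mice, in order of accession, and nothing in the labels ties a KO mouse to a WT mouse. Gm7335 and Gm12751, with 10 to 22 counts per KO library, are limited by depth.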
